A study of Mus musculus with 4 samples.

Results

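Cd44, Tm4sf1, Icam1, Itga5, Itgb1, Plaur and Tnfrsf12a are 7 of the 32287 gene features measured in sorted single cells from mouse spinal cord, and all 7 were present in both matrices. They were selected by gene name, knowing from earlier work on these same cells that several of them, Tm4sf1 and Cd44 above all, were higher in astrocyte-like cells after injury. The injured against uninjured values in astrocyte-like cells are therefore a description. Injury adhesion receptors is a working name for them. Of the 7, 5 were called higher after injury in astrocyte-like and 5 in fibroblast-like cells, beside 13.3% and 10.1% of genes tested there. The name holds less for other classes, some of which carried Tm4sf1, Itga5 or Plaur at like levels without injury. Icam1 was lower after injury in microglia-like cells.

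Cells came from adult Cx30-tdTomato mice, in which tamoxifen-activated Cre driven by Cx30, a connexin gene of astrocytes and some ependymal and meningeal cells, leaves a permanent tdTomato mark. All animals of both conditions also received, through the blood, a pool of adeno-associated viruses with barcoded enhancer reporters. The injured group had a contusion of the cord and was sampled at 3 days, the uninjured group had none, and tdTomato-positive cells were sorted from 5 mm of cord at the same level. Animals were pooled within a condition, and each condition gave 1 gene expression library and 1 barcode library of the same cells, so no difference below has a replicate check.

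These receptors connect cells to the matrix that replaces damaged tissue and to the proteases that remodel it. CD44 binds hyaluronan and osteopontin and passes force to the actin cortex through ezrin, radixin and moesin, while integrin α5 pairs with integrin β1 to form the classical fibronectin receptor. PLAUR holds urokinase at the cell surface, TNFRSF12A (Fn14) is the receptor of the cytokine TWEAK, ICAM1 is the ligand by which leukocyte β2 integrins grip vessel walls, and TM4SF1 is a small four-pass membrane protein known from endothelial and tumour cells. In the cord, reactive astrocytes at a lesion border, infiltrating myeloid cells and scar-forming fibroblasts are all known to carry some of these receptors.

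After the removal of cells with 500 or fewer or 50000 or more gene UMIs (unique molecular identifiers, each standing for 1 captured transcript), the injured library had 879 cells and 8499672 UMIs and the uninjured library 4159 cells and 15543460 UMIs, with medians of 6816 and 3343 per cell. Clustering without the 7 genes gave 12 clusters, of which 11 were named by marker genes in 7 classes. The remaining cluster, of 9 injured and 539 uninjured cells, was left unnamed. Its uninjured cells held 15777 CPM of astrocyte markers, but 2 neuron markers were among its 10 leading genes. Astrocyte-like cells numbered 394 injured and 3302 uninjured, ependymal-like 135 and 31, microglia-like 129 and 32, endothelial-like 68 and 26, fibroblast-like 59 and 98, and OPC-like (oligodendrocyte precursor) 45 and 16. A class led by Nefl (40 and 115 cells) scored for neuron markers, but its uninjured cells held 12274 CPM of astrocyte markers against 1911 CPM of neuron markers, so it is called Nefl-led here and was not compared. The microglia-like class also held all 8 monocyte or macrophage markers after injury, at a summed 9767 CPM against 3634 CPM in uninjured cells, where Ccr2 and Ly6c2 were at 0, and the fibroblast-like class held all 7 mural markers. Their part in the values below was not tested. In the injured library the tdTomato transcript ran from 2240 CPM in astrocyte-like to 32.8 CPM in microglia-like cells, the lowest of the named classes. The 32 uninjured microglia-like cells held no UMI of it. The libraries shared 7 cell barcodes. Of the injured cells 250 scored female and 315 male by sex-linked transcripts, and of the uninjured cells 2 and 2770, so sex and condition were not balanced.

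Cd44 (ENSMUSG00000005087) lies on chromosome 2 from 102811141 to 102901665 on the minus strand of GRCm38, the assembly also called mm10. Tm4sf1 (ENSMUSG00000027800) spans 57285611 to 57301988 of chromosome 3 and Tnfrsf12a (ENSMUSG00000023905) 23675445 to 23677468 of chromosome 17, both on the minus strand. Itga5 (ENSMUSG00000000555) occupies 103344286 to 103366763 of chromosome 15, minus strand. On plus strands, Icam1 (ENSMUSG00000037405) runs from 21015985 to 21028817 of chromosome 9, Plaur (ENSMUSG00000046223) from 24462484 to 24475968 of chromosome 7 and Itgb1 (ENSMUSG00000025809) from 128685654 to 128733200 of chromosome 8. All 7 are protein-coding genes, each on its own chromosome.

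The 250 bases before the annotated RefSeq start (GRCm38.p6) of 4 of the genes are shown: Tm4sf1, Icam1 and Plaur because theirs were the promoters with a motif match, and Cd44 because the gene leads the set and its promoter had none. They are written 5′ to 3′ on the strand of the gene, with a match to a searched motif in capitals.
Cd44, chr2:102901666-102901915, minus strand: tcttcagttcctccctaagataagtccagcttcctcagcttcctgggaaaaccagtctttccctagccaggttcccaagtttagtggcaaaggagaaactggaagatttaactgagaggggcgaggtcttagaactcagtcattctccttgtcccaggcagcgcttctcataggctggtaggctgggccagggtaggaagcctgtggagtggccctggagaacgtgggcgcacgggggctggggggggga
Tm4sf1, chr3:57301989-57302238, minus strand: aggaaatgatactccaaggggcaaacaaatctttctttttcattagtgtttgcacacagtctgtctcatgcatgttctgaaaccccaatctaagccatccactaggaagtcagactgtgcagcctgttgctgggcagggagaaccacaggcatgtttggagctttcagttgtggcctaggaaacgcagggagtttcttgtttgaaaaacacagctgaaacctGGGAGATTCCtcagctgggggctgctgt
Icam1, chr9:21015690-21015939, plus strand: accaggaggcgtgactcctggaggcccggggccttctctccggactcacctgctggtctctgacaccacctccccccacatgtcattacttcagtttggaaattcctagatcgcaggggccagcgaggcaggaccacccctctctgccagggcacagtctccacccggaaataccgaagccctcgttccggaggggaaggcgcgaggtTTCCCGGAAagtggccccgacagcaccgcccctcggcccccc
Plaur, chr7:24462233-24462482, plus strand: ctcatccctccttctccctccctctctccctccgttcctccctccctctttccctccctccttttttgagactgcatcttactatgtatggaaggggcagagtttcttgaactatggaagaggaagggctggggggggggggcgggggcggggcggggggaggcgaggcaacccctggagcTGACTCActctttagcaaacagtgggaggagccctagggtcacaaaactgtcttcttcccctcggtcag

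The motifs searched, on both strands, were those of injury-activated transcription factors. TGANTCA (AP-1) was present in 6.75% of 32851 promoters of the same length, TTCNNNGAA (STAT) in 7.02%, the NF-kB consensus in 3.90% and the CArG box, read by serum response factor, in 1.47%. The Plaur promoter held the AP-1 letters TGACTCA from base -69 to -63 before the start, Icam1 the STAT letters TTCCCGGAA from -42 to -34, and Tm4sf1 the NF-kB letters GGGAGATTCC from -28 to -19. The promoters of Cd44, Itga5, Itgb1 and Tnfrsf12a held none of these letters in this window. CpG pairs ranged from 1 in the 250 bases of Tm4sf1 and 5 in those of Cd44 to 21 in those of Itgb1, the gene with UMIs in every class of both conditions.

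Levels are given as CPM, the UMIs of a gene per 1000000 gene UMIs summed over the cells of a class, with exact Poisson 95% intervals that cover counting error only. The sum is of RNA captured in the class, so more expressing cells and more RNA per cell are told apart below only through the share of cells with a UMI.

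Among cells under the limit of 50000 gene UMIs, Cd44 was at its highest in the microglia-like and astrocyte-like cells of the injured cord. The 38 injured cells over that limit that joined the fibroblast-like class when no cell was removed held more, 430 CPM. It was at 183 CPM (165 to 202, 398 UMIs) in injured astrocyte-like cells and at 5.11 CPM (3.91 to 6.56, 61 UMIs) in uninjured ones. Microglia-like cells had 203 CPM (183 to 224) after injury and 111 CPM (58.9 to 189) without it, from 13 UMIs of which 7 were in 1 cell. The astrocyte-like level was 0.0461 times the microglia-like level without injury (0.0251 to 0.0916) and 0.901 times it after injury (0.781 to 1.04), an interval that holds 1. This second ratio ranged from 0.681 to 1.81 over other ways of choosing and weighting cells. In the fibroblast-like class Cd44 was at 106 CPM (84.8 to 131) after injury and 26.8 CPM (12.3 to 51.0) before, in OPC-like cells at 55.5 CPM and 0, and in ependymal-like cells at 44.8 CPM (35.3 to 56.1) and 6.31 CPM, the latter from 1 UMI. Endothelial-like cells were nearly without it, with 3 UMIs in 68 injured cells (4.03 CPM) and none in 26 uninjured cells. In the order of injured levels, microglia-like and astrocyte-like cells could not be separated, nor could OPC-like and ependymal-like cells.

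Tm4sf1 had another order. It was highest in ependymal-like cells, at 1108 CPM (1059 to 1159) after injury and 738 CPM (610.5 to 885) without it, and in endothelial-like cells, at 919 CPM (852 to 991) and 1085 CPM (896 to 1302). Fibroblast-like cells had 499 CPM (452 to 550.5) after injury and 44.7 CPM (25.0 to 73.8) before. Astrocyte-like cells had 295 CPM (273 to 319, 643 UMIs) after injury and 0.419 CPM (0.136 to 0.977) without it, from 5 UMIs in 3302 cells. The injured and uninjured levels were thus closest in the 2 classes that had the most of it, and far apart in astrocyte-like and fibroblast-like cells. Microglia-like cells had 8.99 CPM after injury, with 8 of their 17 UMIs in 1 cell, which put the astrocyte-like level 32.9 times above theirs (20.4 to 56.8). OPC-like cells had 49 UMIs (46.9 CPM), of which 38 were in 1 cell, and 10.9 CPM without that cell.

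**Figure D1:**
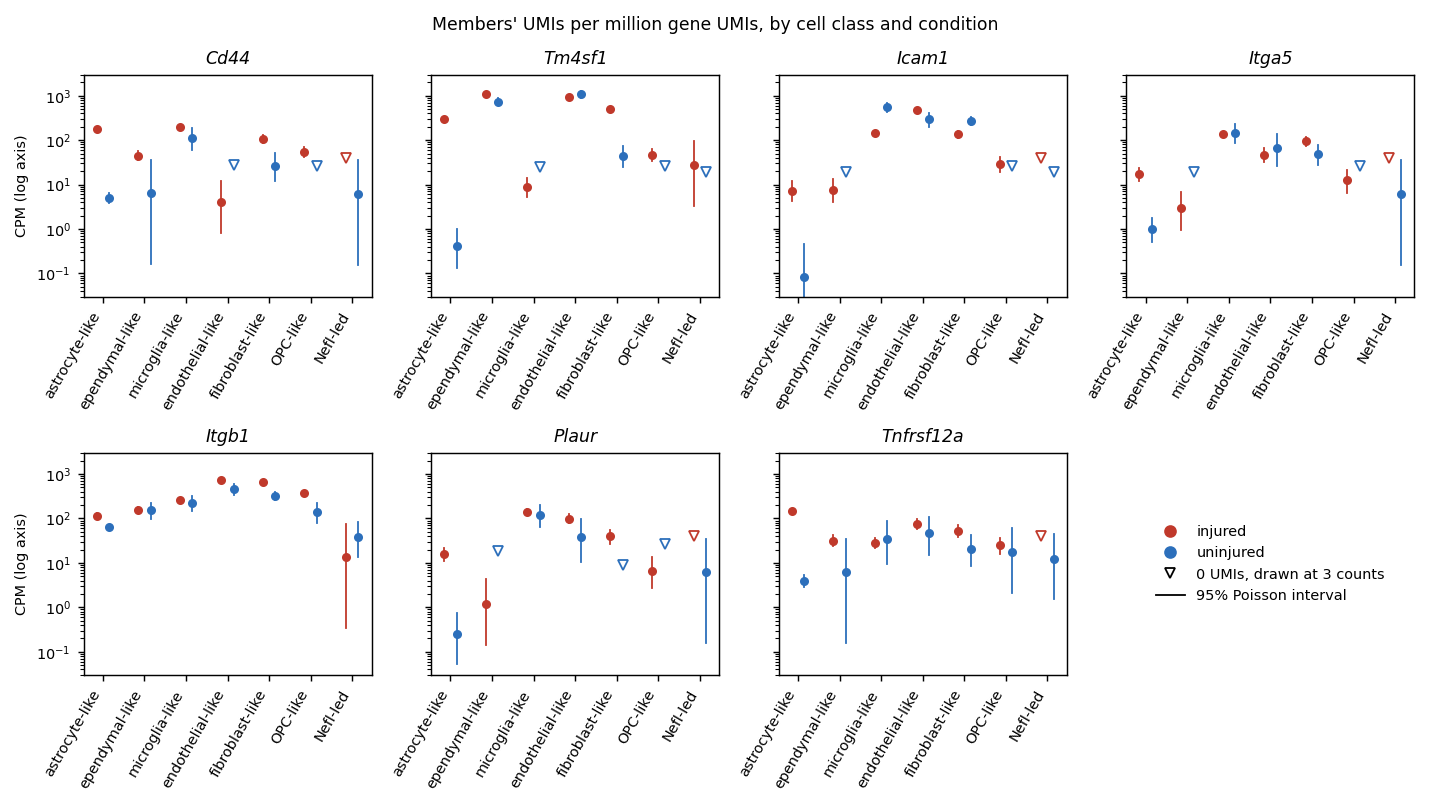
UMIs per 1000000 gene UMIs (CPM, log axis) of the 7 genes in each cell class, injured in red and uninjured in blue, 1 library each; lines are exact Poisson 95% intervals and open triangles mark classes with 0 UMIs, drawn at the level of 3 counts. Tm4sf1 in astrocyte-like cells lies at 295 CPM in the injured library and 0.419 CPM in the uninjured one, while its endothelial-like levels overlap.

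Tnfrsf12a was the only one of the 7 whose highest injured level among the classes, as filtered here, was in astrocyte-like cells, at 150 CPM (134 to 167, 326 UMIs) against 3.93 CPM (2.89 to 5.23) in uninjured cells. Its level in injured astrocyte-like cells was 1.96 times (1.47 to 2.64) that of endothelial-like cells, the next class, at 76.5 CPM. Fibroblast-like cells had 51.8 CPM, ependymal-like 31.9 CPM, microglia-like 28.5 CPM and OPC-like 24.9 CPM after injury. In the uninjured library it was at 47.2 CPM in endothelial-like and 34.0 CPM in microglia-like cells and lowest in astrocyte-like cells, though no pair of neighbouring classes had separate levels.

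The integrin pair was unequally spread. Itgb1, the β1 chain shared by many integrins, was found in every class of both conditions, from 736 CPM in injured endothelial-like and 647 CPM in injured fibroblast-like cells to 116 CPM (102 to 131) in injured and 62.8 CPM (58.4 to 67.4) in uninjured astrocyte-like cells. Apart from the Nefl-led class, astrocyte-like cells had the least Itgb1 in both conditions. Itga5, the α5 chain that completes the fibronectin receptor, was at 138 CPM (122 to 156) in injured and 145 CPM (84.3 to 232) in uninjured microglia-like cells, at 93.7 and 47.7 CPM in fibroblast-like cells and at 47.0 and 66.0 CPM in endothelial-like cells. In astrocyte-like cells it was at 17.5 CPM (12.4 to 24.0, 38 UMIs) after injury and 1.00 CPM (0.519 to 1.76, 12 UMIs) without.

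Plaur was highest in microglia-like cells in both conditions, with 143 CPM (127 to 161) in injured and 119 CPM (65.2 to 200) in uninjured microglia-like cells. It was at 99.3 and 37.7 CPM in endothelial-like cells, and at 39.5 CPM against 0 UMIs in fibroblast-like cells, a difference of at least 4.41-fold with the uninjured side set at 3 counts. Astrocyte-like cells had 15.6 CPM (10.8 to 21.8) after injury, from 34 UMIs in 10 of 394 cells, 13 of them in 1 cell, and 0.251 CPM from 3 UMIs without injury. Without the 1 richest cell the injured level was 9.66 CPM.

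Icam1 was highest in endothelial-like cells after injury and in microglia-like cells without it. Endothelial-like cells had 483 CPM (435 to 536) after injury and 292 CPM (199 to 415) without, but 27 of the 31 uninjured UMIs came from 1 of 26 cells, and the uninjured level was 40.5 CPM without it. Microglia-like cells ran opposite, at 145 CPM (128 to 163) after injury and 545 CPM (420 to 696) without, and fibroblast-like cells had 136 CPM (112 to 164) and 268 CPM (216 to 330). In astrocyte-like cells Icam1 was close to absent in both libraries, with 16 UMIs in 394 injured cells (7.35 CPM) and 1 UMI in 3302 uninjured cells.

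Between conditions, a gene was called higher after injury where the log2 ratio of CPM, with 1 CPM added to both sides, was 1 or more and the exact 95% interval of the ratio did not hold 1, among genes with at least 20 UMIs in the class. In astrocyte-like cells 5 of the 7 genes were called higher (Cd44, Tm4sf1, Itga5, Plaur and Tnfrsf12a), beside 13.3% of the 13443 genes tested there, a contrast that was known when the genes were chosen. Their median log2 ratio, all 7 included, was 3.73, against -0.0024 over all genes tested. Cd44 was 35.8-fold higher (27.3 to 47.7, log2 ratio 4.91 with 1 CPM added), Tnfrsf12a 38.1-fold (28.0 to 52.9, log2 ratio 4.93) and Tm4sf1 706-fold (301 to 2181). Because Tm4sf1 was at 5 UMIs in uninjured cells, its log2 ratio of 7.71 depends on the added CPM. The uninjured cells of the unnamed cluster held 9 further Tm4sf1 UMIs (3.46 CPM). With that cluster counted as astrocyte-like the log2 ratio of Tm4sf1 was 7.20, and with cells chosen by an Aldh1l1 UMI it was 7.23. Itga5 was 17.4-fold higher (8.89 to 36.5) and Plaur 62.2-fold (19.6 to 317), the latter from 3 uninjured UMIs. The log2 ratio of Plaur was 3.73, and it was 2.24 with at least 1000 gene UMIs per cell, 2.37 at a clustering resolution of 1.0 and 2.89 without a filter on cells, settings in which 4 of the 7 genes were called. Itgb1 was 1.84-fold higher (1.59 to 2.13) and did not reach the 2-fold threshold, and Icam1, with 17 UMIs over both libraries, was under the count minimum.

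In the fibroblast-like class 5 of 7 were also called higher, against 10.1% of 7773 genes, and none lower, against 7.95%. Tm4sf1 was 11.2-fold higher (6.69 to 20.1), Cd44 3.95-fold (1.99 to 8.93), Tnfrsf12a 2.48-fold (1.10 to 6.54) and Itgb1 2.03-fold (1.65 to 2.52), beside Plaur, which was at 0 UMIs in the uninjured cells. Icam1 was at 0.505 times its uninjured level (0.379 to 0.675), close to the threshold for lower but not past it. The fibroblast markers of this class summed to 14465 CPM after injury and 27970 CPM without, and its mural markers to 2445 and 1834 CPM, so its makeup moved along with these values. The upper UMI limit also removed 40 injured cells, of which 38 joined this class when they were kept, with 430 CPM of Cd44 and 749 CPM of Tm4sf1, above the 106 and 499 CPM of the class as used here.

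The other classes had few calls. Of the 7 genes, 4 had enough UMIs to be tested in ependymal-like, 6 in endothelial-like and 6 in microglia-like cells, and the shares below are over tested genes. Ependymal-like cells had 1 of 7 called higher, against 3.41% of 9443 genes, and none lower, against 6.05%. That gene was Cd44, at 7.11-fold (1.24 to 284) over 1 uninjured UMI, while Tm4sf1 was 1.501-fold higher (1.25 to 1.83) and not called. Endothelial-like cells had 0 of 7 called higher, against 3.32% of 6168 genes, and none lower, against 4.47%, with Tm4sf1 at 0.848 times (0.695 to 1.04) and Itgb1 at 1.62 times (1.21 to 2.23) its uninjured level. Microglia-like cells had 0 of 7 called higher, against 4.48% of 8098 genes, and 1 called lower, against 10.8%. This was Icam1, at 0.266 times its uninjured level (0.202 to 0.355), whereas Cd44 was 1.84-fold higher (1.06 to 3.48) and Plaur 1.202-fold (0.704 to 2.23). A gene that misses the call here is not shown to be level, since 26 to 32 uninjured cells of each of these 3 classes stood behind it.

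**Figure D2:**
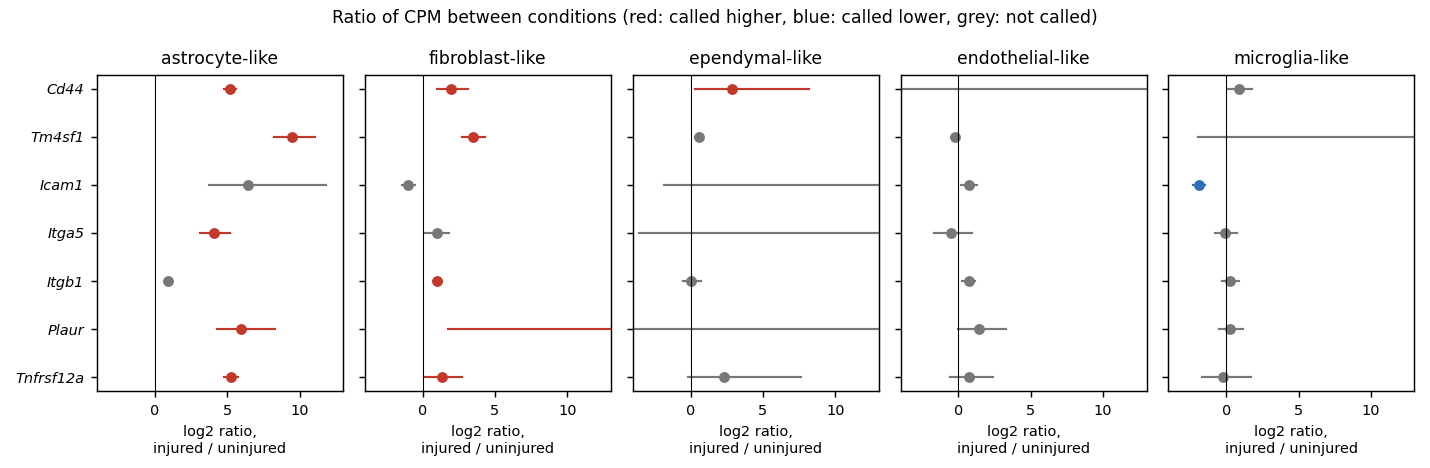
Log2 ratio of CPM, injured over uninjured, of the 7 genes in 5 cell classes, with nothing added to either side. Lines are exact conditional binomial 95% intervals, red marks genes called higher and blue lower; lines without a point that run to the edge belong to genes at 0 UMIs in the uninjured class. The astrocyte-like panel shows 5 red points and the microglia-like panel 1 blue point, Icam1.

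Among astrocyte-like cells, the injured ones gathered in 1 cluster, number 3, which held 319 of the 394 injured cells (81.0%) and 7 of the 3302 uninjured cells (0.212%). The 7 genes took no part in the clustering. Tnfrsf12a was among the 10 genes with the highest fold in cluster 3 over all other cells of both libraries. So were Gfap, the intermediate filament of reactive astrocytes, and Lcn2. Most of those other cells were uninjured, so this fold largely restates the difference between conditions. Cd44 was at 200 CPM (181 to 221) in the injured cells of this cluster and 35.5 CPM in the 75 injured astrocyte-like cells outside it, Tm4sf1 at 328 and 13.3 CPM, and Tnfrsf12a at 166 and 13.3 CPM. Itga5 and Plaur had no UMI outside it, while Itgb1 was at 121 and 66.6 CPM and Icam1 at 7.17 and 8.88 CPM. The 75 cells were shallow, so their values stand on 2 to 15 UMIs a gene where any were found. Of these cells 42 were in cluster 4, where the mitochondrial genes mt-Nd6 and mt-Nd2 were among the 10 leading genes and the injured cells had a median of 1726 UMIs, and the part of RNA quality in their values was not tested. Without that cluster 5 of the 7 genes were still called higher in astrocyte-like cells. Over the 4 large astrocyte-like clusters of the uninjured cord, Cd44 was between 3.59 and 6.51 CPM and Itgb1 between 50.1 and 68.2 CPM. Tnfrsf12a was at 0.651 CPM (0.0165 to 3.62, 1 UMI) in cluster 4 and 5.80 CPM (3.68 to 8.70) in cluster 9, intervals that did not meet. The 7 uninjured cells in cluster 3 held 6 Cd44 UMIs (196 CPM) in 3 cells and 7 Tnfrsf12a UMIs in 1 cell, too few to describe a state.

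**Figure D3:**
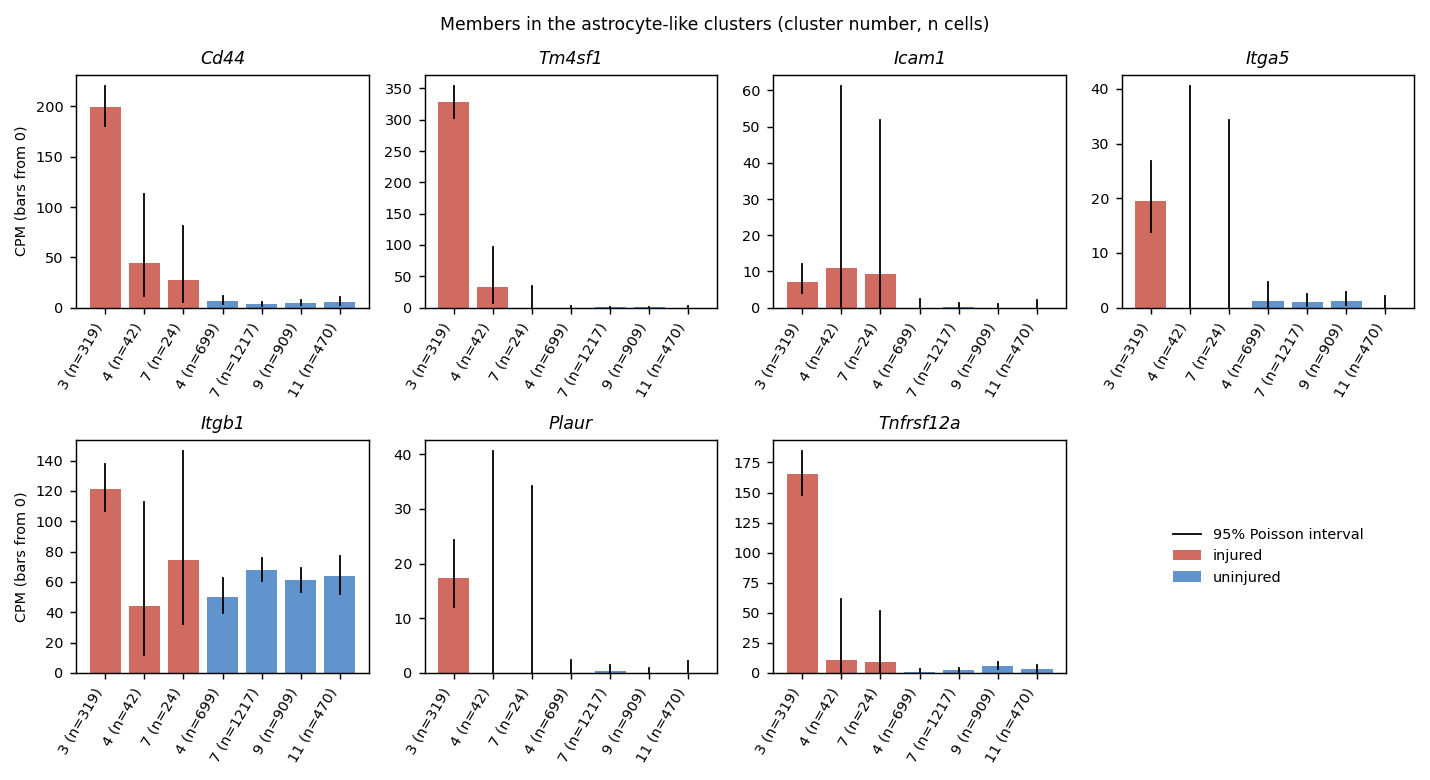
CPM of the 7 genes in the astrocyte-like clusters with at least 20 cells in a condition (cluster number and number of cells under each bar), injured in red and uninjured in blue, bars from 0 with exact Poisson 95% intervals. Cd44, Tm4sf1 and Tnfrsf12a stand at 200, 328 and 166 CPM in the injured cells of cluster 3, and Itgb1 is present in every cluster.

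The receptors went unequally with the acute phase state of the injured astrocyte-like cells. Of the 394 cells, 173 had a UMI of Lcn2 or Timp1, and these cells were also deeper, with a median of 4813 UMIs against 2814 in the other 221. Tm4sf1 was at 465 CPM (428 to 504) in them and 54.5 CPM (40.3 to 72.1) in the rest. Tnfrsf12a was at 203 and 73.4 CPM, Cd44 at 231 and 115 CPM, and Itgb1 at 143 and 76.8 CPM. Plaur was at 11.7 CPM (6.57 to 19.4) with and 21.1 CPM (12.7 to 33.0) without, intervals that overlap. Depth moved with these values: in the deeper 197 of the 394 cells Tm4sf1 was at 333 CPM and Cd44 at 194 CPM, and in the shallower 197 at 130 and 133 CPM, while Gfap was at 2573 and 3664 CPM. The part of depth in the split by Lcn2 and Timp1 was not tested.

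To compare shares of cells, each cell was thinned to 1000 gene UMIs, which left out 31 injured and 71 uninjured astrocyte-like cells. A Cd44 UMI was then found in 12.1% of injured (44 of 363) and 0.619% of uninjured (20 of 3231) astrocyte-like cells, against 33.8% and 1.64% without thinning. Endothelial-like cells, which had almost no Cd44 in their sums, had 0 of 65 injured thinned cells with a UMI, an exact interval of up to 5.52%. Tm4sf1 was in 10.2% of injured astrocyte-like cells, and in 0 of 3231 uninjured ones (up to 0.114%), and its share in microglia-like cells of the injured library was 0.826% at median depths before thinning of 3731 UMIs for astrocyte-like and 13386 for microglia-like cells. Tnfrsf12a was in 11.3% and 0.248% of injured and uninjured astrocyte-like cells, and Itgb1 in 10.5% and 5.82%. Ependymal-like cells carried Tm4sf1 most broadly, in 60.7% of injured and 51.6% of uninjured thinned cells, followed by endothelial-like cells at 46.2% and 50%.

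**Figure D4:**
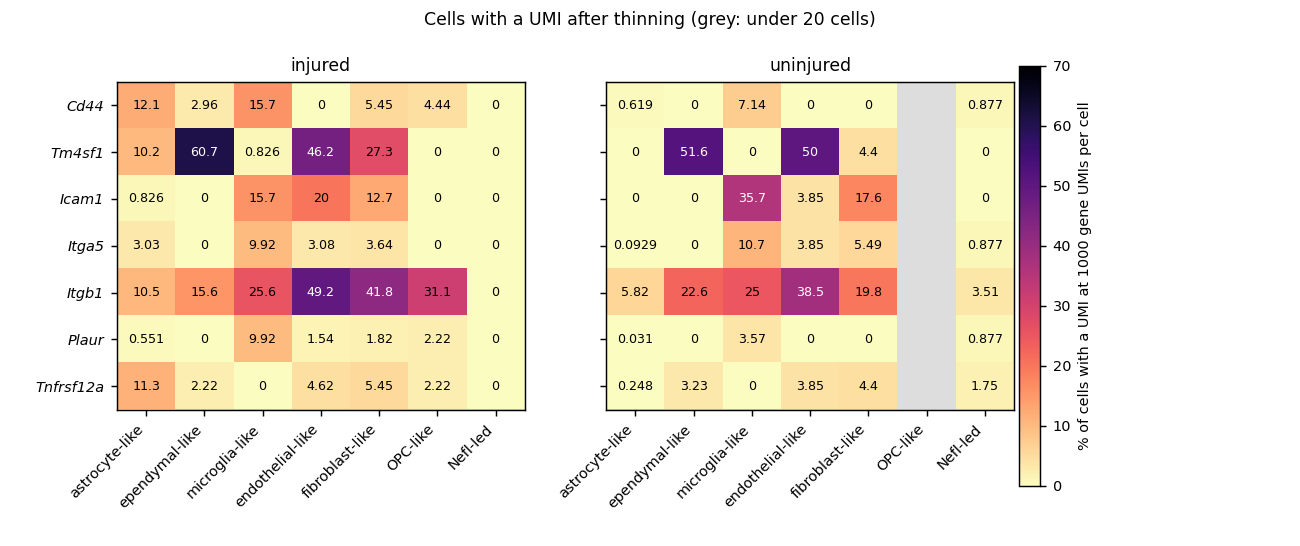
Percent of cells with a UMI of each gene after thinning every cell to 1000 gene UMIs, by class (columns) and condition (panels), printed in each square and shaded from light (0) to dark (70); grey marks OPC-like cells of the uninjured library, fewer than 20. In the injured panel Cd44 and Tnfrsf12a reach 12.1 and 11.3% in astrocyte-like cells, and in the uninjured panel 0.619 and 0.248%.

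Detection of the genes together was counted in injured astrocyte-like cells. At 1000 UMIs, 65.6% of the 363 cells had a UMI of none of the 7 genes, 24.2% of 1 gene, 6.61% of 2 and 3.31% of 3, whereas 93.2% of uninjured cells had none, 6.75% had 1 and 1 cell had 2. Tm4sf1 was detected in 25.0% (13.2 to 40.3%) of cells with a Cd44 UMI and 8.15% (5.39 to 11.7%) of those without. Tnfrsf12a was in 32.4% (18.0 to 49.8%) of cells with a Tm4sf1 UMI and 8.90% (6.04 to 12.5%) of those without, and Itga5 in 13.6% (5.17 to 27.4%) of cells with Cd44 and 1.57% (0.511 to 3.62%) of those without. Tnfrsf12a was in 25.0% (13.2 to 40.3%) of cells with Cd44 and 9.40% of those without, where the upper bound was just under the lower bound of the first share. These 4 of the 21 pairs had intervals that did not meet. For the other 17 pairs the intervals overlapped, as for Cd44 and Itgb1 at 15.9% and 9.72%. They also overlapped for Tm4sf1 and Itga5, where Itga5 was in 2.70% of cells with Tm4sf1 and 3.07% of those without. The same count was not made over pairs of other genes, so the 4 pairs are not shown to be a trait of this set. The 363 cells also mixed cluster 3 with cells outside it, where Cd44, Tm4sf1 and Tnfrsf12a were lower. The part of this mixture in the shares was not tested.

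Across the 14 class and condition combinations with at least 20 cells, Cd44 and Tm4sf1 were not alike, with a Pearson r of -0.05 on log2 CPM with 10 CPM added. The closest pairs among the 7 were Icam1 and Itga5 (r = 0.91) and Itga5 and Plaur (r = 0.87), all 3 high in microglia-like cells of both conditions. Over 8890 genes, the pattern of Cd44 was nearest to Nek6 (r = 0.89), a mitotic kinase, Hmox1 (r = 0.85), the haem-degrading enzyme, and Marcksl1 (r = 0.84). Tm4sf1 was nearest to Hspb1 (r = 0.93), a small heat shock protein, Actn1 (r = 0.91), the actin crosslinker of focal adhesions, and Csrp2 (r = 0.90). The combinations share 2 libraries and differ in depth, so these values describe likeness and nothing more.

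The partners of CD44 were read from a list of 16 genes, of which 11 had enough UMIs in astrocyte-like cells. In the direction higher after injury 5 were called, beside 13.3% of all genes tested, and none lower, beside 8.06%. Moesin (Msn), which ties CD44 to actin, was at 166 CPM against 5.19 CPM in uninjured cells (32.0-fold, 24.4 to 42.7), while its relatives ezrin (Ezr) and radixin (Rdx) were 4.45-fold and 2.02-fold higher. The hyaluronan receptor Hmmr had 24 UMIs against 1, and Spp1, the CD44 ligand osteopontin, was at 90.5 CPM against 4.85 CPM (18.6-fold, 13.8 to 25.4). Spp1 was nonetheless mostly a product of other classes, at 9048 CPM in fibroblast-like and 7552 CPM in microglia-like cells of the injured cord. The hyaluronan synthase Has2 had 35 UMIs in OPC-like (33.5 CPM), 26 in fibroblast-like (32.1 CPM) and 11 in astrocyte-like cells (5.05 CPM) after injury, and 0 in uninjured astrocyte-like cells.

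Beside 13.3% of all genes called higher, other integrin chains gave 1 call among 9 tested of 24 listed, a share near that of all genes. This was Itga2, a collagen receptor chain, with 8 and 13 UMIs. Itga1, another collagen receptor chain, was at 10.1 against 5.52 CPM (1.83-fold, 1.08 to 3.00) and was not called, and Itga6, a laminin receptor chain at 180 CPM against 314 CPM (0.573-fold, 0.515 to 0.636), was not called either. Of the integrin ligands 4 of 11 tested were called higher and 1 lower, beside 13.3% and 8.06% of all genes. Fibronectin (Fn1), the ligand of α5β1, had 49 UMIs in injured astrocyte-like cells (22.5 CPM) and 2 in uninjured ones, against 1255 CPM in injured endothelial-like and 251 CPM in injured microglia-like cells. Tenascin C (Tnc) was at 28.9 CPM against 0.921 CPM and Ccn1 at 71.7 against 11.97 CPM, and the laminin chain Lama2 was at 189 against 384 CPM (0.493-fold, 0.445 to 0.546). Inside the cell, 8 of 17 focal adhesion genes were called higher, and none lower, beside the same 13.3% and 8.06%. Actn1 was 19.3-fold higher (12.3 to 31.4), the actin crosslinker filamin A (Flna) 12.8-fold (9.66 to 17.1) and Tgfb1i1, a paxillin relative, 5.81-fold (2.83 to 12).

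Around PLAUR, 3 of 5 tested plasminogen genes were called higher and none lower, beside 13.3% and 8.06% of all genes. Anxa2 and S100a10, which together form a plasminogen receptor, were at 146 against 2.76 CPM (52.9-fold, 36.9 to 78.2) and 795 against 41.3 CPM (19.2-fold, 17.4 to 21.3), and the tissue activator Plat was at 76.3 against 3.85 CPM. Urokinase itself (Plau) had 1 UMI in injured astrocyte-like cells, and was at 36.0 CPM in injured microglia-like and 19.7 CPM in injured fibroblast-like cells.

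Around TNFRSF12A, 3 of 12 tested genes were called higher and none lower, beside 13.3% and 8.06% of all genes. These were the NF-kB subunits Relb (5.81-fold, 3.53 to 9.57), Nfkb2 (2.58-fold, 1.33 to 4.81) and Rela (2.38-fold, 1.71 to 3.28). Another subunit, Nfkb1, was at 0.775 times its uninjured level (0.670 to 0.893) and was not called. The ligand TWEAK (Tnfsf12) was at 31.7 CPM in injured and 21.8 CPM in uninjured astrocyte-like cells, at 85.6 and 85.1 CPM in microglia-like cells and at 81.9 and 75.5 CPM in endothelial-like cells. The receptor gene was 38.1-fold apart between conditions in astrocyte-like cells, where the ligand gene had neighbouring levels in both libraries.

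Beside Icam1, the leukocyte adhesion genes gave no higher and 1 lower call among 3 tested of 13, namely the junction protein F11r (6 and 94 UMIs, 0.350-fold, 0.125 to 0.791). Pecam1, an endothelial junction receptor, had 4 and 22 UMIs (0.998-fold, 0.25 to 2.94). Vcam1, the other main vascular ligand of leukocytes, was at 88.7 and 97.5 CPM in astrocyte-like cells. Itgam and Itgb2, the chains of a β2 integrin that binds ICAM1, were at 344 and 161 CPM in injured microglia-like cells, with at most 1 UMI in each other class. Itgal, also on the list, was at 8.99 CPM (17 UMIs) in injured microglia-like cells. Among tetraspanins, 5 of 6 tested were called higher and none lower, with Tspan4 at 15.7-fold (11.3 to 22.1), Cd9 at 8.73-fold (8.03 to 9.49) and Cd82 at 5.95-fold (2.50 to 14.3). The relatives of TM4SF1 listed with them, Tm4sf4, Tm4sf5, Tm4sf19 and Tm4sf20, had at most 1 UMI in astrocyte-like cells and were not tested. The partner lists were put together with earlier results of these cells known, and their counts stand beside the same 13.3% of all genes called higher and 8.06% called lower.

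Of the enhancer pool, only 1 element was set beside these genes, and the others were not compared with them. The enhancer named IREN5, which the study ties to Cd44, is given at chr2:102872975-102873741, 767 bases, in coordinates that fall in intron 1 of a Cd44 transcript of 19 exons when read on GRCm38, 27.9 kb from its start. The listing names no build of its own. Its ends are set by the 2 cloning primers, shown because they define the element:
IREN5 forward: GAGAGCTTGGTCCCCTAGAC
IREN5 reverse: TGGAGGACTTGGCAGAATGG

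The barcode feature M5 was taken as that of IREN5, because the 19 M features carry the same numbers as the 19 listed enhancers. In the injured library M5 had 94.6 CPM (82.2 to 108) in astrocyte-like cells, 86.7 CPM in ependymal-like, 75.6 CPM in microglia-like, 68.5 CPM (51.0 to 90.0) in endothelial-like, 88.8 CPM in fibroblast-like and 77.5 CPM in OPC-like cells. Cd44 itself ranged from 4.03 to 203 CPM over these classes, so M5 UMIs per Cd44 UMI ran from 0.372 (0.305 to 0.452) in microglia-like and 0.518 (0.435 to 0.614) in astrocyte-like to 17.0 (5.50 to 85.2) in endothelial-like cells. M5 also took a like share of all enhancer barcode UMIs in each of the 6 classes, from 34.0% (29.5 to 38.8%) in microglia-like to 40.9% (35.8 to 46.2%) in ependymal-like cells. Free RNA in the droplets would give all classes a like mixture of barcodes, and its part in these values was not tested. The study also describes a high share of mismatched pairs of enhancer and barcode from pooled packaging of the viruses, with correct pairs the more likely to be detected. It delivered IREN5 alone as well, and reports that most cells then labelled by the reporter protein were astrocytes. The M5 levels by class are therefore not read here as the activity of IREN5.

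M5 was higher in the injured library in astrocyte-like cells, as Cd44 was, but also in classes where Cd44 differed less. It had 206 UMIs in 394 injured astrocyte-like cells and 0 in 3302 uninjured ones, which allows up to 0.251 CPM. Those uninjured cells held 700 UMIs of other enhancer barcodes. In microglia-like cells M5 was at 75.6 CPM after injury and 0 UMIs without it (up to 25.5 CPM), and Cd44 at 203 and 111 CPM. In endothelial-like cells M5 was at 68.5 CPM and 0 UMIs (up to 28.3 CPM), and Cd44 at 4.03 CPM and 0 UMIs. Over all uninjured cells, 1 of 909 enhancer UMIs was M5, against 708 of 1935 in the injured library. Cell by cell, among thinned injured astrocyte-like cells, M5 was in 15.9% (6.64 to 30.1%) of those with a Cd44 UMI. It was in 8.46% (5.65 to 12.1%) of those without, and the intervals overlap.

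**Figure D5:**
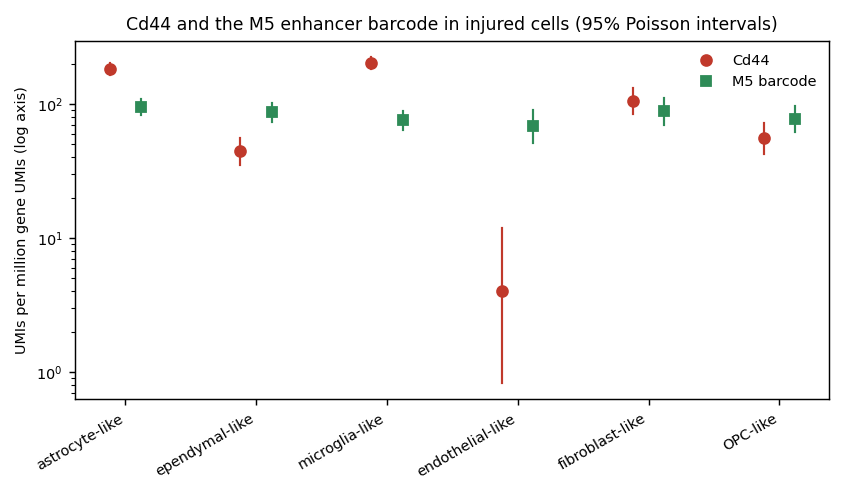
CPM (log axis) of Cd44 (red circles) and of the M5 enhancer barcode (green squares) in the 6 compared classes of the injured library, with exact Poisson 95% intervals. M5 stays between 68.5 and 94.6 CPM while Cd44 falls to 4.03 CPM in endothelial-like cells.

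Markers of other classes within the astrocyte-like cells were read beside these values. All 9 astrocyte markers were present, at a summed 11569 CPM after injury and 13452 CPM without it. Of 8 microglia markers 6 were found in injured cells, at a summed 147 CPM against 97.1 CPM in uninjured cells, with Tmem119 and Csf1r at 0. Endothelial markers summed to 24.8 and 4.44 CPM, fibroblast markers to 129 and 114 CPM, ependymal markers to 36.3 and 10.1 CPM, and of 8 monocyte or macrophage markers 5 were found, at 14.7 and 3.599 CPM, with Ccr2, Ly6c2 and Plac8 at 0 in both. With injured and uninjured cells that held UMIs of 2 or more markers of another class taken out, 5 of the 7 genes were still called higher in the astrocyte-like class.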

How the data were processed

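The authors deposited raw UMI counts of gene and enhancer barcode features per cell, 1 matrix per condition, aligned to mm10 per the submitters' processing notes, which name Cell Ranger 8.0.1, while the file headers name 7.1.0. The counts were not normalised, and cells were called before deposit. Following the study's limits, only cells above 500 and below 50000 gene UMIs were used.

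For clustering, counts were brought to 10000 per cell, log transformed and reduced to 2000 variable genes and 15 principal components, with the 7 genes, enhancer features, tdTomato-WPRE and EGFP left out, and grouped by Leiden at resolution 0.5 over 15 neighbours (scanpy 1.11.5, igraph 0.11.9, Python 3.11.15). The class, of 13 with marker lists, that had the highest mean marker score named the cluster. A name needed a score over 0.2, 3 or more of its markers each present in 10% of the cells, and among the 10 leading genes no larger number of markers from a different class. Doublets were not removed, because Scrublet called 2 of 5038 cells (0.0397%), too few for it to have worked.

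UMI sums per class were given as CPM with exact Poisson intervals, ratios with exact conditional binomial intervals and shares with Clopper-Pearson intervals, all at 95%. Intervals and the limit of 3 counts for a zero cover counting error only. With 1 library per condition no test was possible and no p-value was computed. The interval and call code was tested on simulated data first.

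The 7 genes, the partner lists and the markers were chosen with earlier results of these data known. Named genes were the 7 members, in each partner list the 3 tested genes with the largest change, and the 5 genes most like Cd44 and the 5 most like Tm4sf1 in pattern, of which 3 each are printed; other partner genes were named after their values were seen. Gene positions came from GENCODE on GRCm38, where 32158 of 32285 identifiers (99.6%) matched, and promoters from RefSeq on GRCm38.p6.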

Additional observations from a re-analysis of the deposited data

Results flagged for a closer look

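Icam1 went opposite ways between classes. Its log2 ratio of injured over uninjured CPM, with 1 CPM added to both sides, was -1.90 in microglia-like cells, 2.95 in astrocyte-like cells and 0.72 in endothelial-like cells, and the difference between classes was not tested. The astrocyte-like value stands on 16 and 1 UMIs, and 27 of the 31 uninjured endothelial-like UMIs were in 1 cell. The injured microglia-like cells also carried more of the monocyte or macrophage markers (9767 against 3634 CPM), and the part of that in the Icam1 value was not tested.

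The 40 injured cells that reached 50000 gene UMIs, which were left out of the class values, carried all 7 genes. They held 425 CPM of Cd44 (403 to 448, in 40 of 40 cells), 747 CPM of Tm4sf1, 683 CPM of Itgb1, 188 CPM of Itga5, 144 CPM of Tnfrsf12a, 83.5 CPM of Plaur and 54.2 CPM of Icam1. Their Cd44 level was above that of every kept class. When no cell was removed, 38 of them fell in the fibroblast-like class, 1 in the ependymal-like and 1 in the microglia-like class, and their fibroblast markers summed to 8813 CPM against 487 CPM of astrocyte markers. The uninjured library had no such cells to compare.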

How the results depend on the processing

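The values in astrocyte-like cells were recomputed under 14 other settings, 2 of them added after the data were seen, and none turned the direction of an injured over uninjured log2 ratio. The log2 ratio of Cd44 was 3.67 with 10 CPM added in place of 1 and 4.18 with cells thinned to 1000 UMIs, and ranged from 3.67 to 5.06 in all. For Tm4sf1 it was 4.87 with 10 CPM added and ranged up to 8.49. The number of the 7 genes called higher ran from 3 (thinned cells) to 7 (cells with an Aldh1l1 UMI). The injured ratio of Cd44 in astrocyte-like over microglia-like cells was 0.729 with astrocytes taken as cells with an Aldh1l1 UMI, 0.685 without the highest 5% of Scrublet scores, 0.681 after thinning and 1.81 without cells carrying 2 or more markers of another class, so its side of 1 depends on the setting. The same ratio for Tm4sf1 was 348 in male-scored cells. Causes were not tested.

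The number of cells called astrocyte-like also moved. Of the 394 injured cells, 86 became unnamed without a filter on cells, 151 with at least 1000 UMIs per cell and 228 at resolution 1.0, with Cd44 at 272, 231 and 187 CPM in them. No paired analysis was possible because injured and uninjured cells came from 1 library each. Depth limits the small classes, where 26 to 32 uninjured cells stood behind ependymal-like, microglia-like and endothelial-like values.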
